A study of Mus musculus with 12 samples.

Results

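Imprinted genes are transcribed mainly from the copy inherited from 1 parent, and 9 of them were looked up on mouse arrays hybridised with RNA of 3T3 cells: Peg3, Mest, Plagl1, Cdkn1c, Grb10, H19, Meg3, Ndn and Snrpn. Members were every probe whose annotated gene symbol is 1 of these 9. That gave 13 probes for 7 genes, out of 16969 genes with a probe named by 1 symbol; no probe is named H19 or Meg3 alone. The study asked what Shld1, a synthetic ligand made to stabilise proteins fused to an engineered FKBP12 domain, does to the transcripts of 3T3 cells, a mouse embryo fibroblast line. There were 4 groups of 3 arrays: control cells and cells given 10 nM, 100 nM or 1 µM Shld1. The labels give no genotype, subline, vehicle or length of treatment, and nothing in them says that the 3 replicates came from different cultures, so p-values measure the spread between these arrays, which may be technical.

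On each of the 12 arrays the cell RNA carried Cy5 and a commercial mouse reference RNA carried Cy3. Each value is therefore a log2 ratio of 3T3 RNA over reference RNA, centred on its array's median, and 0 means the ratio of the median probe. Before centring the array medians lay between -0.203 and -0.095, so a level this close to 0 rests on the centring. The dyes were not swapped, so a probe's dye bias is part of its distance from 0 but cancels in a comparison between doses. A ratio sets a gene against the reference's own content of that gene and does not rank genes by abundance, and the arrays do not tell the parental copies apart. In RNA of whole cultures, fewer expressing cells and less RNA per cell cannot be told apart.

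The arrays carry 38784 probes, and each array lacked a value for 13.3% to 21.0% of them. The mean correlation of an array with the other 11 ran from 0.717 for 10 nM replicate 3 to 0.803 for 100 nM replicate 1. The fibroblast and leukocyte markers went with the fibroblast label. Of 14 fibroblast genes 12 were higher than the reference and 1, Pdgfra, was lower. Of 10 measured leukocyte and macrophage genes 9 were lower and none was higher. The other marker lists were less clear. Higher than the reference were 2 of 4 endothelial, 1 of 5 muscle, 2 of 5 adipocyte, 2 of 6 epithelial and 1 of 6 neural genes. Lower were 0, 0, 2, 3 and 1 in the same order. Over all genes 38.6% were higher and 34.4% lower. The median difference of the leukocyte and macrophage genes from control was 0.44, -0.02 and 0.36 on the log2 scale at 10 nM, 100 nM and 1 µM, with 8, 4 and 9 of the 10 above 0. That of the fibroblast genes was -0.08, 0.03 and -0.25, with 11, 6 and 11 of the 14 below 0. No gene of either list passed the test at a dose, and the part of these shifts in the dose comparisons was not tested.

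As background, imprints are methyl groups on CG dinucleotides laid down in the egg or sperm and kept through the cell divisions of the embryo by DNMT1 and by ZFP57 and ZFP445, which bring TRIM28 and the histone methylase SETDB1 to the marked copy. Many imprinted genes act on growth before birth: several paternally expressed genes promote it, and several maternally expressed genes, among them Cdkn1c, Grb10 and H19, restrain it. Peg3, Mest, Plagl1, Ndn and Snrpn are expressed mainly from the paternal copy, Cdkn1c, H19 and Meg3 from the maternal copy, and Grb10 from the maternal copy in most tissues and the paternal copy in neurons. Many are expressed more strongly in the embryo and placenta than in adult tissues.

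Of the 10 member probes with enough values to test, 9 differed from the reference over the 12 arrays, 5 higher and 4 lower, at an adjusted p under 0.05 in limma's moderated test with Benjamini-Hochberg adjustment over 30357 probes. Most probes on the array did so too, 71.3% in either direction, 35.6% higher and 35.6% lower, so that count alone does not set the members apart. On the control arrays alone 7 of 10 differed, 4 higher and 3 lower, against 43.3% of all tested probes, 23.4% higher and 19.9% lower; at 10 nM, 100 nM and 1 µM it was 6, 7 and 7, against 42.2%, 48.1% and 43.3%. In size, 3 member probes lay more than 2-fold above the reference, for Grb10 (both its probes) and Ndn, and 1 lay more than 2-fold below, for Mest; over all tested probes 6.73% and 6.49% did. No member probe passed the test of a difference from control at any dose of Shld1.

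**Figure D1:**
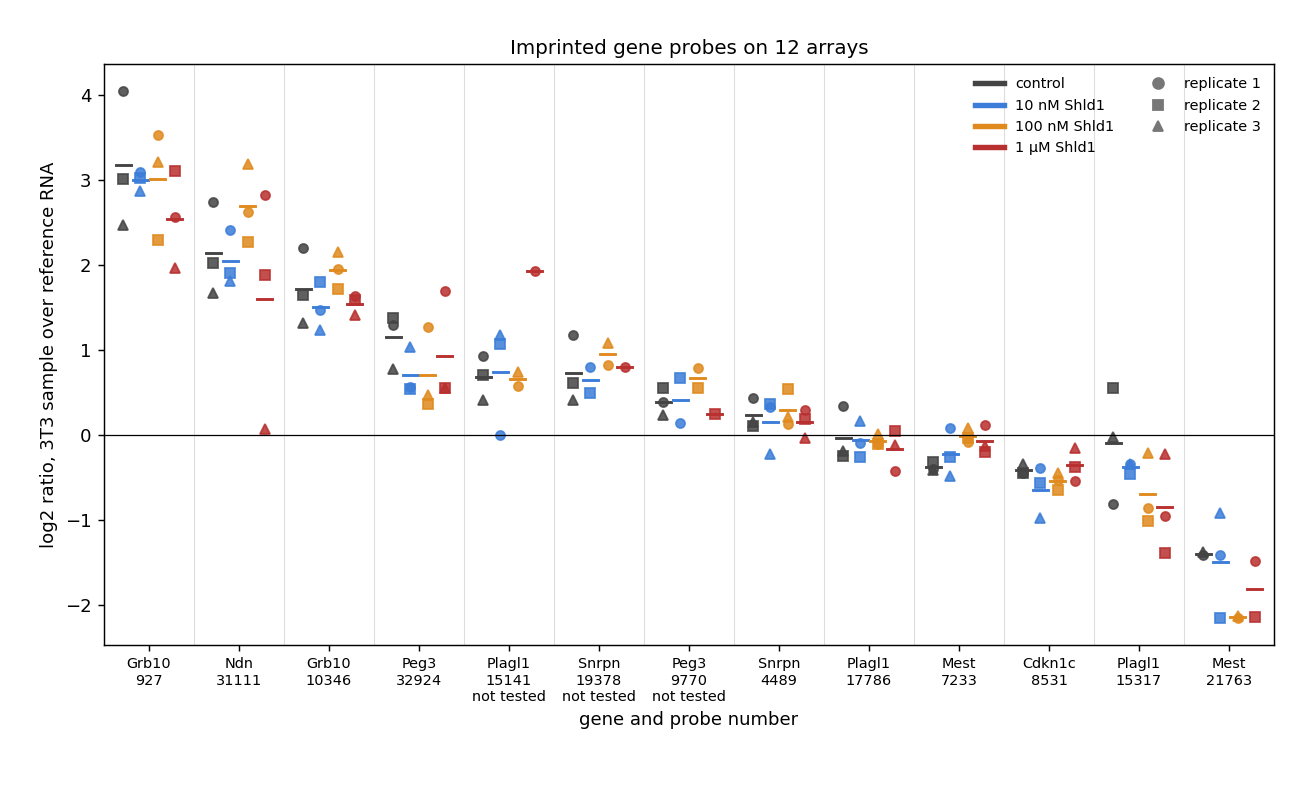
Log2 ratio of 3T3 RNA over reference RNA (vertical axis) for the 13 probes of the 7 genes, ordered by their mean ratio; each symbol is 1 array, coloured by Shld1 group and shaped by replicate number, and bars are group means. The Grb10 probes read 1.23 or more on all 12 arrays, Ndn drops to 0.07 on 1 array at 1 µM, and Mest probe 21763 reads -0.92 or lower where it has a value.

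Grb10 encodes an adaptor that binds the activated insulin and IGF1 receptors and damps their signal. Its probe 927 read 4.05, 3.02 and 2.47 on the control arrays, 3.09, 3.03 and 2.87 at 10 nM, 3.54, 2.30 and 3.22 at 100 nM and 2.57, 3.10 and 1.96 at 1 µM. The group means were 3.18 ± 0.80, 3.00 ± 0.11, 3.02 ± 0.64 and 2.55 ± 0.57 (SD, n = 3 each), and every dose group overlapped the control arrays. Over all arrays the level was 2.94 (SE 0.15), 7.65-fold above the reference, with a limma adjusted p of 7.37e-09.

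The other Grb10 probe, 10346, read lower than probe 927 on every array. Its values were 2.20, 1.65 and 1.31 in control, 1.47, 1.80 and 1.23 at 10 nM, 1.95, 1.72 and 2.16 at 100 nM and 1.63, 1.59 and 1.42 at 1 µM. Its level of 1.68 (SE 0.08) was 3.20-fold above the reference, with a limma adjusted p of 6.87e-09. The probes differed by 1.26 ± 0.42 on the log2 scale (SD over 12 arrays) and rose and fell in part together across arrays, with a Pearson correlation of 0.67 given as a description. Both lay above a 2-fold difference when that was the value tested against, with limma adjusted p of 1.28e-06 and 8.58e-05; of the other member probes Ndn and Mest probe 21763 did so in size, at 0.00147 and 0.00469.

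RefSeq lists 2 start sites for Grb10, and the 250 bases before each are shown because they differ in their number of CG dinucleotides, written here in capitals. Methylation was not measured, so nothing here says whether any of these CG carries an imprint. The first window, on the minus strand at chr11:12037421-12037670 of GRCm38.p6, holds 40 CG, more than or as many as 98.9% of 32851 promoter windows of that length, whose median is 6. The second, also on the minus strand at chr11:12027972-12028221, holds 8. The data do not say from which start the 3T3 transcripts came.
Grb10 start 1: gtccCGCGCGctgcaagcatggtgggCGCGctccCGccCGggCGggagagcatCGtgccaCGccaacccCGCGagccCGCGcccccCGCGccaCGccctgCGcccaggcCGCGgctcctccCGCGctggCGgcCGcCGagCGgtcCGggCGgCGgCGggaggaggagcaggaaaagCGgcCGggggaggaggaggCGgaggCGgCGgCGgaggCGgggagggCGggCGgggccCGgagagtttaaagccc
Grb10 start 2: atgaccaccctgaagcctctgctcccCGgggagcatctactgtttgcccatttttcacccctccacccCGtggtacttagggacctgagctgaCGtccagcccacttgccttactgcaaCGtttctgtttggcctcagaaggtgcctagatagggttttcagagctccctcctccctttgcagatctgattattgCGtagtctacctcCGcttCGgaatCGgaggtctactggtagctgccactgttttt

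Grb10 has 2 relatives of the same adaptor family on the array, neither of them an imprinted gene of the lists used. Grb14 stood at 1.68 (SE 0.07) over all arrays, higher than the reference, and Grb7 at -0.53 (SE 0.12), lower; both passed the test. Of the receptors and signalling proteins that Grb10 meets, Irs1, the main docking protein of the insulin receptor, was 1.04 (SE 0.05) above the reference. Insr, the insulin receptor itself, was lower at -0.18 (SE 0.07).

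Ndn encodes necdin, a MAGE-family protein of postmitotic neurons that binds E2F1 and p53 and slows growth. Its 1 probe read 2.75, 2.02 and 1.67 in control, 2.42, 1.90 and 1.81 at 10 nM, 2.62, 2.27 and 3.19 at 100 nM and 2.83, 1.89 and 0.07 at 1 µM. The level over all arrays was 2.12 (SE 0.20), 4.35-fold above the reference, with a limma adjusted p of 1.14e-06. The third 1 µM array stood far below the other 11, of which the lowest read 1.67, and it set the group's SD of 1.40 against 0.33 to 0.55 in the other groups. The probe's residual spread was larger than that of 96.7% of tested probes. Without that array the 1 µM difference turned from -0.55 to 0.21 on the log2 scale, and was not called either way.

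Of 11 relatives of the members measured (MAGE, CIP/KIP, Grb and Plag families), 4 were higher than the reference, 6 lower and 1 not called, against 38.6% and 34.4% of all 14523 genes; those of necdin ran in both directions. Magee1 at 0.82 (SE 0.10) and Maged1 at 0.78 (SE 0.07) were higher than the reference, while Mageh1 at -0.49 and Maged2 at -0.22 (SE 0.05) were lower. Among necdin's partners E2f1, a transcription factor of S-phase entry, was 1.54 (SE 0.10) above the reference.

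Peg3 and Plagl1 encode zinc finger transcription factors; PLAGL1 can arrest the cell cycle and binds other imprinted genes. Peg3 probe 32924 read 1.30, 1.38 and 0.77 in control, 0.56, 0.53 and 1.03 at 10 nM, 1.27, 0.36 and 0.46 at 100 nM and 1.70, 0.55 and 0.55 at 1 µM. It lay above 0 on every array, at a level of 0.87 (SE 0.12) or 1.83-fold above the reference, with a limma adjusted p of 3.61e-05. Its group means were 1.15 ± 0.33, 0.71 ± 0.28, 0.70 ± 0.50 and 0.93 ± 0.67 (SD, n = 3), each dose below control but overlapping it. The other Peg3 probe, 9770, had values on 8 arrays only, 0.39, 0.55 and 0.23 in control, 0.14 and 0.67 at 10 nM, 0.79 and 0.55 at 100 nM and 0.25 at 1 µM, and was not tested; all 8 were above 0.

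The 250 bases before the Peg3 start are shown because, of the members' windows searched, this is the one that holds the letters GGGGCCCC of a PLAGL1 motif, present on either strand in 0.889% of the promoter windows. It lies on the minus strand at chr7:6730420-6730669 of GRCm38.p6 and holds 8 CG, in capitals. A letter match is not evidence of binding.
Peg3: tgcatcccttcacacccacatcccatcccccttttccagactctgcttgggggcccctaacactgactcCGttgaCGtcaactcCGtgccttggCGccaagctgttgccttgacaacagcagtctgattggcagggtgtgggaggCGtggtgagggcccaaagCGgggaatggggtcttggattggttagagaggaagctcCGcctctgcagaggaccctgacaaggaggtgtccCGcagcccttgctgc

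The 3 Plagl1 probes did not read alike. Probe 15317, which stands for a cDNA record outside the RefSeq mRNAs, read -0.82, 0.55 and -0.03 in control, -0.34, -0.46 and -0.35 at 10 nM, -0.86, -1.01 and -0.21 at 100 nM and -0.96, -1.39 and -0.22 at 1 µM. Its level was -0.51 (SE 0.13), lower than the reference with a limma adjusted p of 0.00333, though its control arrays alone were not called (-0.10, SE 0.25, adjusted p = 0.779). Probe 17786 lay close to the reference, with 0.34, -0.25 and -0.20 in control, -0.09, -0.26 and 0.16 at 10 nM, -0.11, -0.11 and 0.01 at 100 nM and -0.43, 0.05 and -0.12 at 1 µM. Its level of -0.08 (SE 0.07) was the 1 member level that did not pass the test, with a limma adjusted p of 0.317.

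Probe 15141 had values on 9 arrays and was not tested: 0.93, 0.71 and 0.41 in control, -0.01, 1.06 and 1.18 at 10 nM, 0.58 and 0.74 at 100 nM and 1.93 at 1 µM. It was above 0 on 8 of the 9, so the Plagl1 probes disagree on the side of the reference, and no direction is given for the gene. Its relatives Plag1, at -0.40 (SE 0.05), and Plagl2, at -0.52 (SE 0.07), were lower than the reference.

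Cdkn1c encodes p57, which binds and inhibits cyclin-dependent kinases. Its 1 probe was below 0 on every array: -0.44, -0.45 and -0.34 in control, -0.39, -0.56 and -0.98 at 10 nM, -0.53, -0.65 and -0.45 at 100 nM and -0.54, -0.38 and -0.16 at 1 µM. The level was -0.49 (SE 0.06), 1.40-fold below the reference, with a limma adjusted p of 2.59e-05. The 100 nM arrays all lay below the control arrays, as did 4.56% of tested probes, yet that difference of -0.13 (SE 0.18) was not called. Of its CIP/KIP relatives, Cdkn1a, which encodes the p53 target p21, was lower than the reference at -0.78 (SE 0.05), and Cdkn1b, which encodes p27, was higher at 0.24 (SE 0.05).

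Mest encodes a protein of the alpha/beta hydrolase fold linked to the growth of fat cells and of the embryo. Probe 21763 was the lowest of the member probes, with -1.42 and -1.39 on 2 control arrays, -1.42, -2.16 and -0.92 at 10 nM, -2.15 and -2.14 on 2 arrays at 100 nM and -1.49 and -2.15 on 2 arrays at 1 µM. Its level was -1.72 (SE 0.13), 3.29-fold below the reference, with a limma adjusted p of 2.22e-06. Probe 7233, for a cDNA record outside the RefSeq mRNAs, lay close to the reference, with -0.41, -0.32 and -0.41 in control, 0.08, -0.26 and -0.49 at 10 nM, -0.08, -0.03 and 0.08 at 100 nM and 0.11, -0.20 and -0.13 at 1 µM. Its level of -0.17 (SE 0.06) had a limma adjusted p of 0.0248, which rose above 0.05 on leaving out any of 3 single arrays.

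On the 9 arrays that both Mest probes share, they differed by 1.52 ± 0.60 (SD) and did not move together, with a Pearson correlation of -0.42 given as a description. They also pointed apart with dose: at 100 nM and at 1 µM all arrays of probe 7233 were above the control arrays, and those of probe 21763 below them. Across all tested probes, 4.86% did the former and 4.56% the latter at 100 nM, and 3.94% and 4.85% at 1 µM. Probe 21763 had only 2 values in the control, 100 nM and 1 µM groups each. It therefore separates more easily than a probe with 3 values a group, and those shares are not a like comparison for it. At 10 nM no member probe lay wholly to one side of control, against 3.92% of tested probes above it and 3.83% below. None of the 4 Mest differences was called, and no direction is given for Mest with dose.

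**Figure D2:**
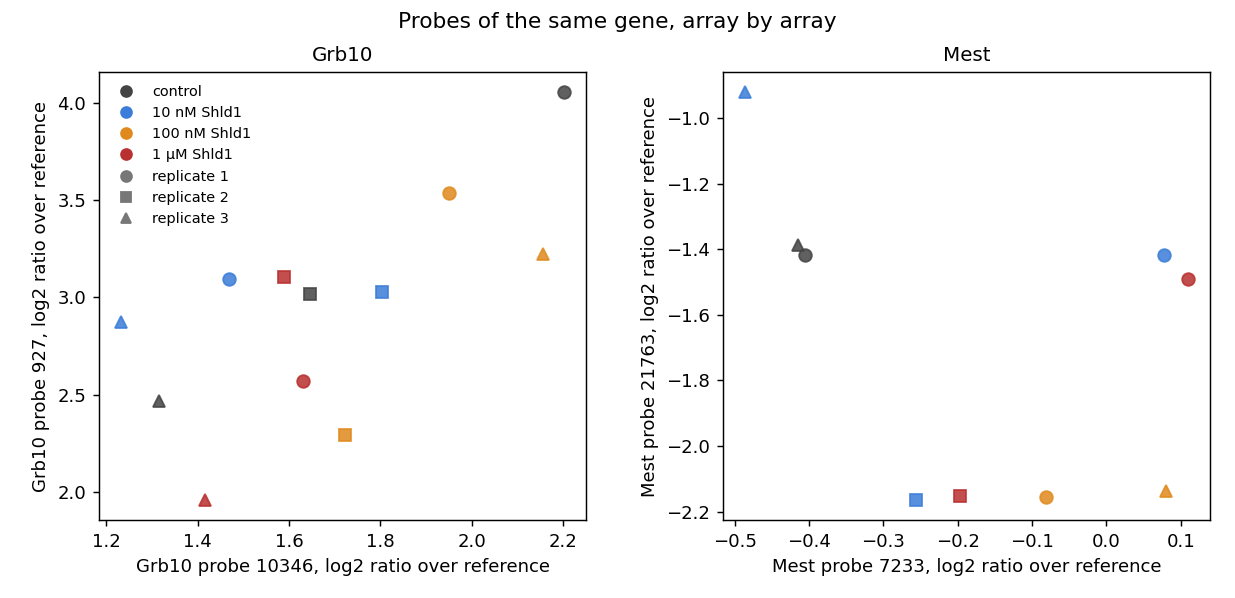
Log2 ratios over reference RNA of both Grb10 probes (left) and both Mest probes (right), 1 point an array, coloured by Shld1 group and shaped by replicate number. The Grb10 probes rise only in part together over 12 arrays, with the control replicate 1 array highest on both, while the Mest probes show no common order over 9 arrays.

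Mest has 3 start sites in RefSeq, and windows before the first and second are shown because they differ in CG and in a motif read by an imprint-keeping protein; the third window overlaps the second. Which transcripts the Mest probes read was not tested. CG is again in capitals. The first, on the plus strand at chr6:30733256-30733505 of GRCm38.p6, holds 7 CG and no TGCCGC, the letters of the ZFP57 motif. The second, on the plus strand at chr6:30737800-30738049, holds 14 CG and 2 TGCCGC over both strands, letters found in 8.68% of promoter windows. Among the other members, the Plagl1 window and the first Meg3 window hold 1 TGCCGC each.
Mest start 1: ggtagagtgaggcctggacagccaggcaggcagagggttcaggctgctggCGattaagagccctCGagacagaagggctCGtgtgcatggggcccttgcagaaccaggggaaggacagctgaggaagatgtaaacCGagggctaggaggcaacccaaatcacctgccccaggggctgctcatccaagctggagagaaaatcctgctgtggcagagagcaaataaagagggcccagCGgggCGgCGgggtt
Mest start 2: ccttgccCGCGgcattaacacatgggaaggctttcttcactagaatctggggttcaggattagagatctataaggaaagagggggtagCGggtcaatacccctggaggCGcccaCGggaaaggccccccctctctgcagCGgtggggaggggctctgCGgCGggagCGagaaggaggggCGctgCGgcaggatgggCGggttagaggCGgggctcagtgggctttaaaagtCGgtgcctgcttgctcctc

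Snrpn encodes SmN, a neuronal form of the core splicing protein SmB, from a transcript that also carries Snurf. Probe 4489 read 0.43, 0.11 and 0.15 in control, 0.32, 0.36 and -0.22 at 10 nM, 0.13, 0.54 and 0.21 at 100 nM and 0.29, 0.18 and -0.03 at 1 µM. Its level was 0.21 (SE 0.07), 1.15-fold above the reference with a limma adjusted p of 0.0215. That call is weak: without centring the arrays the level was 0.06 with an adjusted p of 0.503, and leaving out any of 3 single arrays put the adjusted p above 0.05. Probe 19378 was above 0 on the 8 arrays where it had a value, with 1.17, 0.61 and 0.42 in control, 0.80 and 0.49 at 10 nM, 0.82 and 1.08 at 100 nM and 0.80 at 1 µM, and was not tested.

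Snurf had 5 probes with means from 0.04 to 0.79, and its gene value of 0.32 (SE 0.05) was above the reference; Snurf and Snrpn are carried by 1 transcript and are not separate measurements. Of 6 measured Sm core genes, whose proteins form the ring around spliceosomal RNAs, 5 were higher than the reference, as were 38.6% of all genes, and none was lower. Snrpd2 stood highest at 0.83, and Snrpb, which encodes SmB, stood at 0.17, within the shift made by centring. The unmeasured H19 and Meg3 are long noncoding RNAs. Beside H19 lies Igf2, a fetal growth factor, at 0.39 (SE 0.07); beside Meg3 lie Dlk1, Rtl1 at -0.01 and Dio3 at -0.16, the last pair not called. Dlk1, a surface protein that holds back fat cell formation, had 2 probes with values on 11 arrays each, at 3.67 and 2.24, both above the reference; the gene value below is the first of them. The higher probe lay above the gene values of Grb10 (2.31, the mean of its probes) and Ndn (2.12), and the other between them.

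The comparison of doses asked whether Shld1 itself alters transcripts, and no member probe passed the test at 1 µM, 100 nM or 10 nM, in a linear trend over the order of the 4 groups, in an F test over the doses or between any pair of doses. By limma with Benjamini-Hochberg adjustment, 0.00329% of all tested probes were called at 1 µM and 0% at 100 nM and at 10 nM, so the array as a whole had almost no call. At an unadjusted p under 0.05 the members had 0 of 10 at each dose, against 1284, 980 and 812 of all 30357 probes, or 4.23%, 3.23% and 2.67%. With 1 value per gene, as for the other lists, Plagl1 at 1 µM (-0.45, SE 0.19) and Mest, there probe 7233 alone, at 100 nM (0.37, SE 0.16) fell under that limit, and so did the trends of both. Of all 14523 genes 4.26% did so at 1 µM, 3.02% at 100 nM, 2.48% at 10 nM and 3.56% in the trend. None of these passed after limma's adjustment. The Plagl1 value averages probes 15317 and 17786, which differed from control by -0.76 and -0.135 at 1 µM. Untested probe 15141 read 1.93 on its 1 array at 1 µM, against a control mean of 0.68. No direction is therefore given for Plagl1 with dose.

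At 1 µM the largest differences from control were -0.76 (SE 0.36; 95% interval -1.54 to 0.03) for Plagl1 probe 15317, -0.64 (SE 0.42; -1.54 to 0.27) for Grb10 probe 927 and -0.55 (SE 0.55; -1.76 to 0.65) for Ndn. Each had a limma adjusted p of 0.999. With single arrays left out, Plagl1 probe 15317 ran from -1.12 to -0.43, Grb10 probe 927 from -0.99 to -0.20 and Ndn from -1.17 to 0.21. Plagl1 probe 15317 also had the 1 trend with an unadjusted p under 0.05, -0.26 per step of the dose order (limma adjusted p = 0.9999), against 3.76% of all tested probes. Its control arrays spread from -0.82 to 0.55, and 5 of the 9 treated arrays lay within that range and 4 below it.

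At 100 nM the differences ran from -0.74 (SE 0.38) for Mest probe 21763 to 0.55 (SE 0.55) for Ndn. At 10 nM they ran from -0.44 (SE 0.34) for Peg3 to 0.16 (SE 0.17) for Mest probe 7233. The 95% interval stayed within a 2-fold change either way for 6 member probes at 1 µM, 5 at 100 nM and 6 at 10 nM of 10, against 77.9%, 80.4% and 80.0% of all tested probes. For Grb10 probe 927, Ndn, Plagl1 probe 15317 and Mest probe 21763 a 2-fold fall at 1 µM is within the interval, so a change of that size was not resolved with 3 arrays a group. The median difference of the 10 probes was -0.20, -0.08 and -0.14 at 1 µM, 100 nM and 10 nM, beside -0.01, 0.02 and 0.00 for all tested probes; the comparisons share their control arrays. The fibroblast markers had medians of -0.25, 0.03 and -0.08 at the same doses, and their part in the members' differences was not tested.

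**Figure D3:**
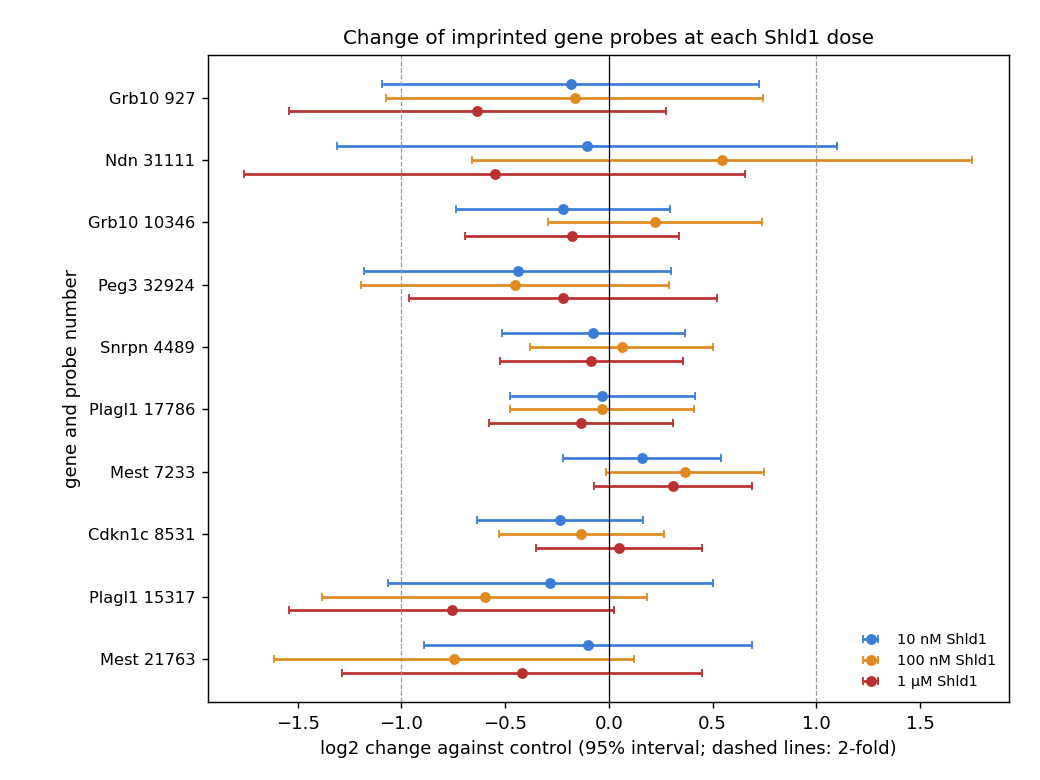
Log2 change against the control arrays (horizontal axis) for the 10 tested probes at each Shld1 dose, with 95% intervals from the limma fit and dashed lines at a 2-fold change. Every interval crosses 0, and Ndn and Grb10 probe 927 have the widest.

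Other genes listed as imprinted were measured beside the members. The parental copy named is that of the list, and whether 3T3 cells express a single copy or both was not measured. Of 17 tested paternally expressed genes outside the members, 9 were higher than the reference, Snurf counted among them although it shares its transcript with the member Snrpn, 2 were lower and 6 not called, with a median of 0.25; over all 14523 genes 73% were called, 38.6% higher and 34.4% lower, with a median of 0.03. After Dlk1, whichever probe is taken, the highest were Slc38a4, an amino acid transporter of the placenta and liver, at 1.39 (SE 0.10), Impact, an inhibitor of the kinase GCN2, at 0.97 (SE 0.07), and Mcts2, at 0.58, whose near-identical copy Mcts1 may share its signal. Rasgrf1, an exchange factor for Ras, at -0.76 (SE 0.11) and Nap1l5 at -0.70 (SE 0.07) were the 2 lower ones. Nnat is counted among the 9 higher by probe 32248 alone, at 0.48. Its other tested probe, 8070, stood at -0.91, so its probes give no common direction. Rasgrf1 also had an untested probe, 22641, above 0 on the 3 arrays where it had a value.

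Of 18 tested maternally expressed genes outside the members, 6 were higher, 7 lower and 5 not called, with a median of -0.06. Cd81, a tetraspanin, stood at 1.61 (SE 0.09), Osbpl5, a lipid transfer protein, at 1.08 (SE 0.06) and Igf2r, which clears IGF2 from the cell surface, at 0.65 (SE 0.08). Trappc9 at -0.56 (SE 0.07), Nap1l4 at -0.46 (SE 0.10) and Ascl2, a transcription factor of the placenta, at -0.45 (SE 0.09) were lowest. The Nap1l4 value is the mean of 2 probes on opposite sides of the reference, 13253 at -1.05 and 28732 at 0.13. Probe 13253 read -3.05 on 100 nM replicate 2. Nap1l4 is counted among the 7 lower, but its probes give no common direction. Probes also disagreed for Tspan32 and Kcnq1, both counted among the 6 higher. Tspan32 had tested probes at 0.49 and -0.29, and the first is its gene value. Kcnq1, at 0.26, is the mean of 5 probes from -0.37 to 0.75. The Ube3a value is probe 14569 alone, with a mean of -0.18. Its other tested probes, 13735 and 17499, averaged 0.06 and 0.90. None of these genes was called at a dose, and the smallest unadjusted p at 1 µM was that of Slc38a4, at -0.78 (SE 0.30; limma adjusted p = 0.999).

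**Figure D4:**
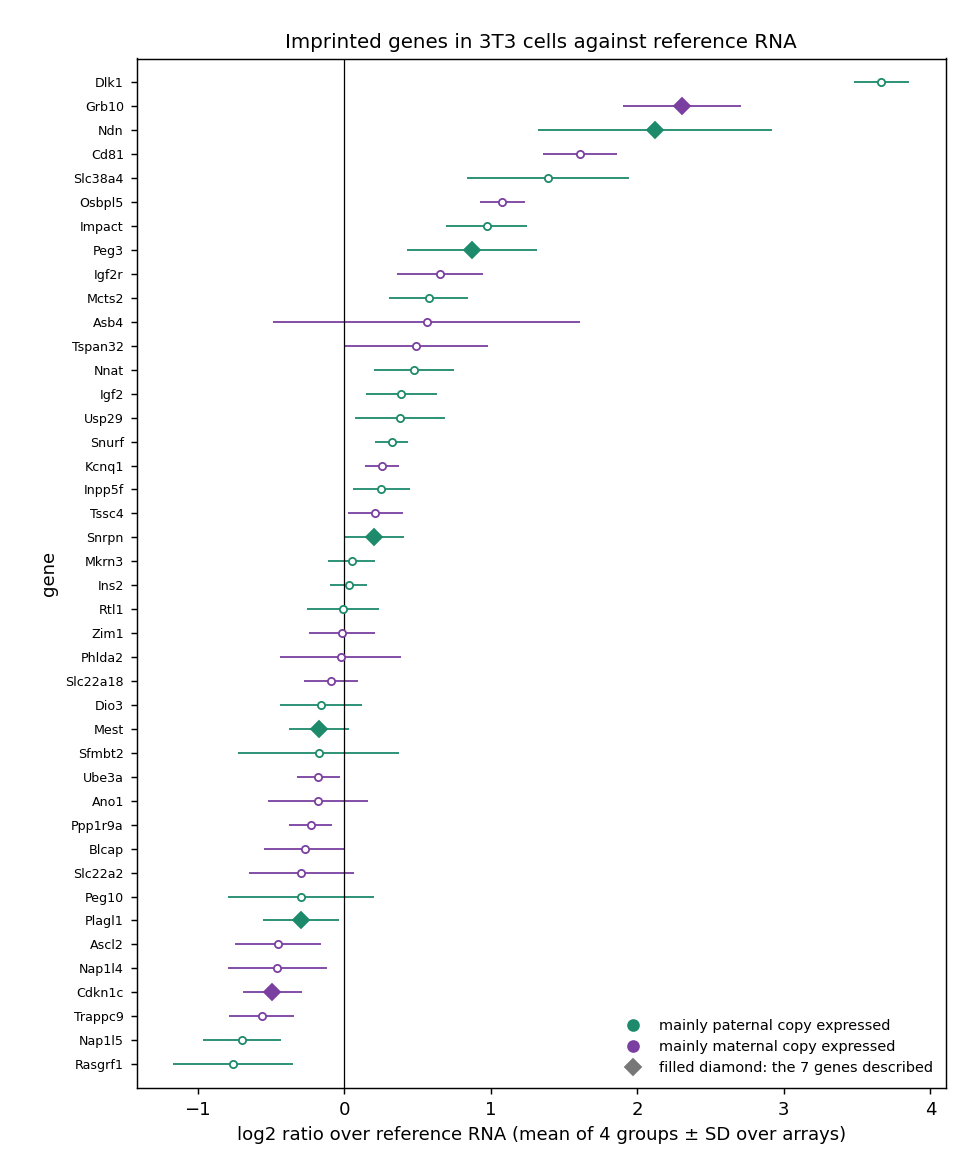
Mean log2 ratio over reference RNA (horizontal axis, bars are the SD over arrays) of every listed imprinted gene with a tested probe. Colours give the parental copy listed as mainly expressed, which was not measured in these cells. Filled diamonds are the 7 genes described. Nnat and Tspan32 are each drawn at a probe above 0 and have another tested probe below 0. Dlk1 is drawn at 3.67, the higher of its 2 probes (the other reads 2.24, below Grb10 at 2.31 and above Ndn at 2.12), and Cdkn1c lies below 0; Grb10 and Plagl1 are means of 2 probes, and Mest is probe 7233 alone.

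The genes that set and keep imprints were measured as well. Of 17 tested, 7 were higher than the reference and 5 lower, with a median of 0.01, against 38.6% of all genes higher and 34.4% lower. Higher were Trim28 at 1.01 (SE 0.06), the chromatin remodeller Hells at 0.95 (SE 0.06), Dnmt1 at 0.84 (SE 0.06) and Setdb1 at 0.58 (SE 0.06). Lower were Dnmt3l, the partner of the germline methylases, at -0.57 (SE 0.08) and Zfp445 at -0.31 (SE 0.05). None was called at a dose; the smallest unadjusted p at 1 µM was that of Dnmt3a, 0.40 (SE 0.14; limma adjusted p = 0.999).

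Across the 12 arrays, each member measured on all of them was set beside 36 imprinted genes for the most similar profile, as a description in which the arrays' own quality is shared. Grb10 ran closest to Snurf, with a Pearson correlation of 0.83 and a Spearman correlation of 0.74. Ndn ran closest to Tssc4, with 0.76 and 0.44; both had their lowest value, 0.07 and -0.20, on 1 µM replicate 3, apart from their other 11 arrays. Cdkn1c ran closest to Slc22a2, with 0.71 and 0.68, and Plagl1 to Rasgrf1, with 0.65 and 0.71. The Plagl1 profile is the mean of probes 15317 and 17786, which had a Pearson correlation of -0.21 with each other over the 12 arrays. Its likeness to Rasgrf1 is therefore that of the mean, and was not tested for either probe alone. For Peg3, Mest and Snrpn the closest genes were Osbpl5, Kcnq1 and Impact, with Pearson correlations of 0.58, 0.56 and 0.58. Their lowest correlations, at -0.68, -0.61 and -0.70, were larger in size. The Mest profile is that of probe 7233 alone, which had a Pearson correlation of -0.42 with probe 21763 on the 9 arrays they share. Each closest gene is the highest of 36 over 12 arrays. The members' median correlations with the 36 lay between -0.12 and 0.03, so a shared profile is not shown. The highest value of 3 member probes fell on control replicate 1, and the lowest value of 4 fell on 10 nM replicate 3, the array least like the others.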

How the data were processed

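The deposited table gives 1 value per probe and array; its values are treated as log2 ratios of Cy5 (cells) over Cy3 (reference), and how the authors normalised them is not given in the sources. No source states the log base: values from -8.564 to 6.737 are too wide for a log10 ratio of scanner intensities, and the direction follows the dyes per the labels. The table keeps no intensities, so signal over background is unknown and the number of arrays limits the precision. Gene names come from the platform's annotation: 26173 probes have 1 symbol, 28 several and 12583 none.

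The array median was subtracted from every value. A probe was kept (30357 were) if every group had at least 2 of its 3 arrays filled. The fit used limma 3.58.1 under R 4.3.3, with 1 mean per group, empirical Bayes variances and Benjamini-Hochberg adjustment at 0.05; limma leaves blank arrays out of a probe's fit. The script was tested on simulated data. Figures used matplotlib 3.10.9. Probes of a gene were averaged if complete over the 12 arrays; where none was, the fullest probe stood for the gene. These gene values were refitted over 14523 genes. Every member probe is reported; from other lists the genes named have the highest or lowest ratio or the smallest p at 1 µM, up to 4 each, besides family relatives and neighbours picked for their role. Members and lists were chosen with earlier results of these data known. Promoter windows come from RefSeq (GRCm38.p6), with 7 of the 9 genes matched; the probe annotation names no build. Alternatives were other scaling, filters, weights, the replicate number as a block, single arrays left out and a test against a 2-fold difference.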

Additional observations from a re-analysis of the deposited data

How the results depend on the processing

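No member probe was called at any dose under any alternative run. The count of member probes differing from the reference over all arrays was 9 and ran from 7 to 9 with single arrays left out. Under the other alternatives but 1 it ran from 7 to 12. Among these, the fit with 1 value per gene counts genes, and all 7 tested were called. The 12 came from the looser filter on missing values, which tests all 13 probes. Tested against a 2-fold difference the count was 4. For the control arrays alone it was 7, ran from 4 to 7 with single arrays left out (4 without control replicate 1 and without control replicate 3), was 9 with the looser filter, and was 2 against a 2-fold difference. Against a 2-fold difference the levels of Snrpn probe 4489, Mest probe 7233, Cdkn1c, Plagl1 probe 15317 and Peg3 lost their call. Other levels that changed their call were Snrpn probe 4489 and Mest probe 7233, as given above, and Plagl1 probe 17786, called without centring (-0.23, limma adjusted p = 0.0125).

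Differences from control that were never called changed sign as follows. With quantile normalization, 10 nM gave 0.094 for Grb10 probe 927 and 0.058 for Ndn. With array weights, 100 nM gave 0.064 for Grb10 probe 927 and 0.062 for Plagl1 probe 17786, and 10 nM gave 0.083 for Snrpn probe 4489 and 0.062 for Ndn. With the replicate number as a fixed replicate block, Mest probe 21763 gave 0.078 at 1 µM and 0.20 at 10 nM, and the member count stayed 0 at every dose. Deviations from the group means correlated between -0.104 and 0.253 (median 0.095) for same-numbered arrays. For other pairs they ran from -0.314 to 0.208 (median -0.058). Deviations within a group sum to 0, so these medians are not independent. Of the 12 arrays 8 correlated best with one of their own number. With the replicate number as a random block the fitted correlation was 0.045. The array numbers in the titles also run in the order of the replicates, so an array series and the replicate number cannot be told apart. Within each replicate number they rise in the order of dose. Array number and dose order therefore cannot be told apart there either, also in the linear trend. The cause of these changes was not tested.

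With single arrays left out, the 1 µM differences ran from -0.16 to 0.015 for Snrpn probe 4489, -0.054 to 0.14 for Cdkn1c, -0.38 to 0.065 for Grb10 probe 10346, -0.24 to 0.053 for Plagl1 probe 17786 and -1.17 to 0.21 for Ndn. At 100 nM they ran from -0.52 to 0.27 for Grb10 probe 927, -0.061 to 0.16 for Snrpn probe 4489 and -0.14 to 0.15 for Plagl1 probe 17786. At 10 nM they ran from -0.54 to 0.25 for Grb10 probe 927, -0.18 to 0.11 for Snrpn probe 4489, -0.42 to 0.021 for Grb10 probe 10346, -0.64 to 0.041 for Plagl1 probe 15317, -0.14 to 0.16 for Plagl1 probe 17786, -0.39 to 0.23 for Mest probe 21763 and -0.34 to 0.20 for Ndn.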

Other observations

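The proteins that the members bind or act on were measured in the same fit. Of 18 tested, 9 were higher than the reference, 4 lower and 5 not called, with a median of 0.15, against 38.6% of all genes higher and 34.4% lower. Pcna, the sliding clamp of DNA replication, stood at 2.03 (SE 0.08) and Cdk4, a kinase of the G1 phase, at 1.27 (SE 0.07). Traf2, a signalling protein of the TNF receptor, had the lowest ratio at -3.17 (SE 0.24), and Siah1a, a ubiquitin ligase, stood at -0.65 (SE 0.09). At 1 µM 14 of the 18 were below control, against 7697 of 14523 genes, and none was called. Their differences ran from -1.10 to 0.24. Irs1, which had the smallest unadjusted p of the list, differed by -0.33 (SE 0.15, limma adjusted p = 0.999). Grb14 differed by -0.46 (SE 0.20; limma adjusted p = 0.999), and 10 of the 11 relatives of the members were below control at 1 µM, against 7697 of 14523 genes.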
